A study of Sus scrofa with 8 samples.

Results

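The genes of the interferon regulatory factor (IRF) family examined here were IRF1, IRF2, IRF3, IRF4, IRF5, IRF7, IRF8 and IRF9. They were found in the table of counts by their symbols in the pig Ensembl gene names, and 8 of 8 symbols matched an identifier among the 24358 genes of the table. IRF proteins share a DNA-binding domain that recognises interferon-stimulated response elements, and they differ in what switches them on. IRF1 and IRF2 act in opposite directions on many of the same elements, IRF3, IRF5 and IRF7 are activated by phosphorylation after viral or microbial nucleic acid is sensed, IRF9 is the DNA-binding subunit of a complex formed after interferon binds its receptor, and IRF4 and IRF8 are factors of lymphoid and myeloid cells. In pluripotent stem cells the interferon response is known to be weak.

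RNA-seq was performed on pig induced pluripotent stem cells (DOX-hLIF-2i piPSCs), which had been reprogrammed from embryonic fibroblasts and depend on doxycycline-induced factors, in order to learn how IRF-1 changes their transcripts. The IRF-1 overexpressing cells (replicates 1 and 3) received a piggyBac plasmid in which the CAG promoter drives pig IRF1 with a Flag tag, and the control cells (replicates 6 and 8) received the plasmid with the tag alone. Both groups were from domestic pig, labelled adult, and were selected with puromycin, and feeder cells were left behind on a plate before RNA was extracted. The growth label names an LCDMV culture system. The genotype label reads overexpression for all 4 libraries, and the groups follow the key to the library titles in the study. No label says that the libraries of a group came from separate cultures, so p-values measure the spread between libraries, which may be technical.

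The libraries held 24923319 and 20858333 counts in the overexpressing cells and 15925429 and 17097669 counts in the control cells. A count of 3, taken as the floor, was worth 0.12 to 0.188 CPM (the count scaled to a common library total). Levels are compared between genes as FPKM, which is CPM divided by the exon length in kilobases. Floors and intervals from counts cover counting error only.

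IRF1 (ENSSSCG00000014277; chr2:134776124-134783819, minus strand) is the activator that was introduced, and its level checks the labels. It had 8206 counts in overexpressing replicate 1 and 5485 in replicate 3, against 55 and 56 counts in control replicates 6 and 8. This was 131 and 105 FPKM in the overexpressing libraries and 1.37 and 1.30 FPKM in the controls. Both overexpressing libraries thus lay far above both controls, on the side their group names give. The log2 fold change was 6.46 (SE 0.21, 95% confidence interval 5.98 to 6.95, adjusted p = 3.65e-05, edgeR quasi-likelihood test), which ranked 69 among the 13250 genes tested. By mean FPKM, IRF1 ranked 10743 of all 24358 genes in the control cells and 407 in the overexpressing cells.

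The introduced transcript and the endogenous one could not be told apart in these counts. The insert was copied from fibroblast cDNA with the primers whose gene-matching parts follow, shown because they mark the ends of the introduced stretch, with the start codon in capitals and the end primer written as its reverse complement.
IRF1 start: ATGcccatcactcggatgc
IRF1 end: gccattccttgtgcaccg
The insert thus began at the start codon and held coding sequence without the annotated untranslated ends, whereas the exon length of 2512 bases behind the FPKM covers the whole gene.

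IRF2 (ENSSSCG00000015782; chr15:45546783-45656928, minus strand) is best known as the repressor that competes with IRF1 for its elements. It had 348 and 274 counts under IRF-1 overexpression and 152 and 135 in the controls, or 4.90 and 4.61 FPKM against 3.35 and 2.77 FPKM. The 2 groups did not overlap, with both overexpressing libraries above both controls. The log2 fold change of 0.64 (SE 0.24, interval 0.08 to 1.20) had an unadjusted p of 0.0298 and an adjusted p of 0.0843 by edgeR, and IRF2 was not called. The upper end of the interval is a 2.3-fold difference.

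IRF3 (ENSSSCG00000003178; chr6:54701672-54707124, minus strand) is the factor held in the cytoplasm until TBK1 phosphorylates it. It had 778 and 605 counts under IRF-1 overexpression and 688 and 508 in the controls. On the FPKM scale these were 18.4 and 17.1 against 25.5 and 17.5. Control replicate 6 stood above the other 3 libraries, which were close to each other, and the groups overlapped in CPM. The log2 fold change was -0.27 (SE 0.22, interval -0.78 to 0.24, adjusted p = 0.392, edgeR). Without control replicate 6 it was 0.06, with the other sign, and without control replicate 8 it was -0.54 (unadjusted p = 0.0168, adjusted p = 0.0525, edgeR), so its size and sign depended on which control was kept.

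IRF5 (ENSSSCG00000016573; chr18:19678308-19691154, minus strand), which acts downstream of MYD88 and Toll-like receptors on inflammatory cytokine genes, was the other member called. It had 63 and 26 counts under IRF-1 overexpression against 2 and 6 in the controls. Its level was low in all 4 libraries, at 0.553 and 0.273 FPKM in the overexpressing cells and 0.0275 and 0.0768 FPKM in the control cells. The lower overexpressing library was still above the higher control. The log2 fold change was 2.96 (SE 0.67, interval 1.39 to 4.52, adjusted p = 0.0144, edgeR). IRF5 passed the filter on low counts through the overexpressing libraries, and at the level of the controls it would not have been tested. Without overexpressing replicate 1 the log2 fold change was 2.35 and the adjusted p was 0.0972 (edgeR), and IRF5 was no longer called. It was not called with glmTreat either, edgeR's test against the fold limit itself (adjusted p = 0.0601). Over the other alternatives, all of which called it, the adjusted p ran from 0.000383 to 0.0498 (edgeR, DESeq2 and limma-voom).

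Of the 8 members, 4 passed the filter, and 2 of these 4, IRF1 and IRF5, were called higher, the limits being a log2 fold change of 1 in size and an adjusted p of 0.05. Among all genes tested, 8.61% were called higher. With edgeR 0 of the 4 members were called lower, against 10.6% of all genes tested. At an unadjusted p under 0.05, 3 were higher, IRF2 besides the 2 called, and 0 were lower. No share of all genes is given at that limit. DESeq2 and limma-voom also called 2 members higher and 0 lower. One of the 2 was the introduced gene, and the other passed the filter only through the group in which it was high, so the share of members called is not weighed against that of all genes. Without the filter 8 members were tested, and 2 were called higher and 0 lower.

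**Figure D1:**
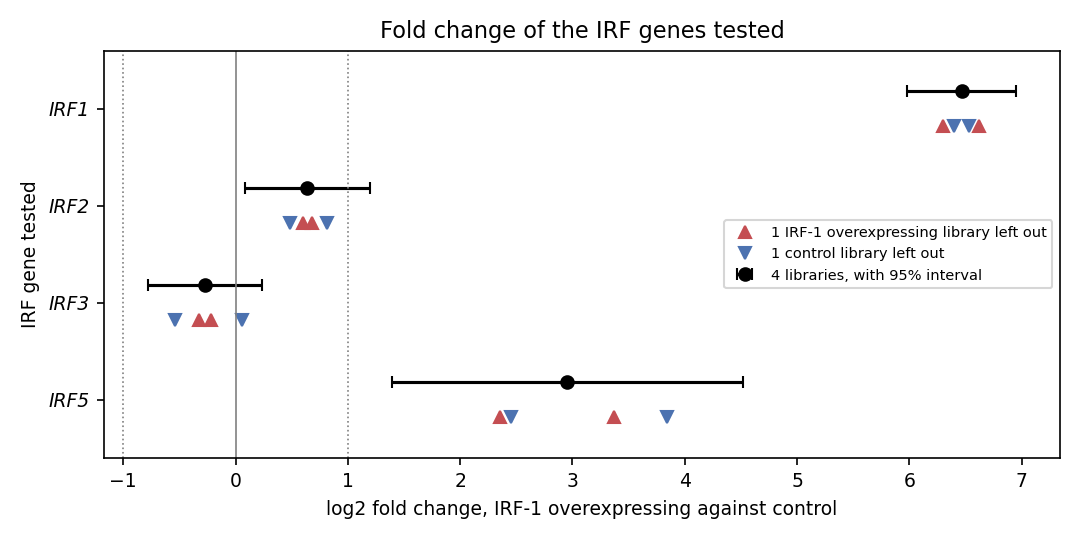
The log2 fold change (x axis) of the 4 IRF genes tested (y axis), with black points and 95% intervals from all 4 libraries and triangles for fits with 1 library left out; dotted lines mark a log2 fold change of 1 in either direction. IRF1 sits near 6.46 and IRF5 near 2.96, with triangles from 2.35 to 3.84 for IRF5, while the triangles of IRF3 lie on both sides of 0.

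IRF4 and IRF8, the factors of lymphoid and myeloid cells, were at or near 0. IRF4 (ENSSSCG00000033381; chr7:133360-149607, plus strand) had 1 count in overexpressing replicate 3 and 0 in the other 3 libraries. IRF8 (ENSSSCG00000034980; chr6:3041417-3060685, minus strand) had 0 counts in both overexpressing libraries and 5 and 2 in the control libraries. Neither passed the filter, and a level of IRF8 under 0.0424 to 0.0664 FPKM, the value of 3 counts, was not detectable at this depth. The controls of IRF8 lay above the overexpressing libraries, but only 1 of the 4 libraries exceeded the floor.

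IRF7, the factor that amplifies type I interferon, and IRF9 had few counts, and their gene models limit what could be counted. IRF7 (ENSSSCG00000012853; chr2:371133-375379, minus strand) had 0 and 5 counts under IRF-1 overexpression and 3 and 0 in the controls. IRF9 (ENSSSCG00000002002; chr7:75133696-75139230, minus strand) had 0 and 9 counts under IRF-1 overexpression and 1 and 3 in the controls. In both genes the 2 groups overlapped, and overexpressing replicate 3 held most of the counts.

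Of the 3126 exon bases of IRF7, 93.06% also belong to exons of PHRF1 on the opposite strand, and 85.24% of the 1700 exon bases of IRF9 belong to exons of REC8 on the same strand. The other 6 members share 0 exon bases with another gene. Across the table, 374 genes have all of their exon bases shared with other genes, and 373 of them had 0 counts in every library. Of the 19039 genes with no shared exon base, 30.11% had 0 counts in every library. Among genes shared only with the opposite strand, 184 of 185 had 0 counts. Genes that lie wholly in shared stretches thus had almost no counts, whichever strand the other gene was on. The bases of IRF7 outside such stretches are 217, at chr2:371133-371349, and those of IRF9 are 251, at chr7:75137845-75137878 and chr7:75139014-75139230.

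With counts divided by the unshared bases alone, IRF7 was at 0 and 1.10 FPKM in the overexpressing libraries and 0.868 and 0 FPKM in the controls. IRF9 was at 0 and 1.72 FPKM against 0.250 and 0.699 FPKM. On this scale 3 counts of IRF7 were worth 0.555 to 0.868 FPKM against 0.0424 to 0.0664 FPKM for IRF8, and a level of IRF7 below that was not detectable. PHRF1 had 4149 and 3753 counts under IRF-1 overexpression and 2442 and 2532 in the controls (log2 fold change 0.21, SE 0.14), and REC8 had 28 and 32 against 24 and 19 (0.02, SE 0.46). The low counts of IRF7 and IRF9 therefore say little about their transcripts, in either group.

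**Figure D2:**
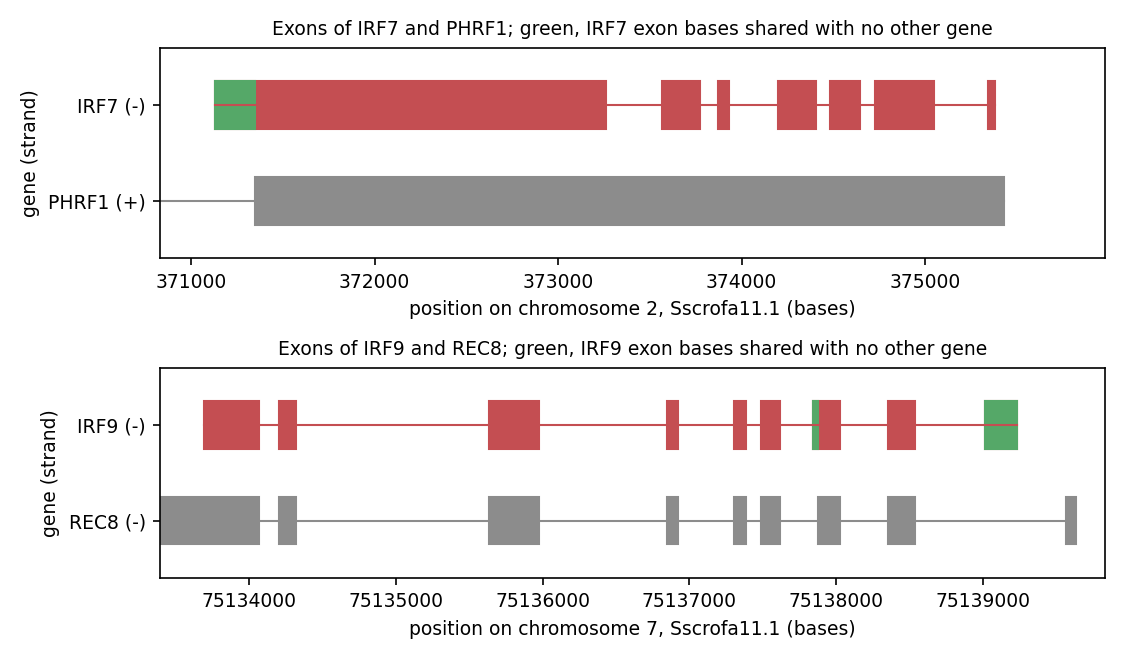
Exons (boxes) of IRF7 with PHRF1 and of IRF9 with REC8, drawn to scale by position in bases (x axis) in a window around each IRF gene, with the strand beside each name. Green marks the 217 bases of IRF7 and the 251 bases of IRF9 that belong to no other gene.

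The order of the levels changed at its head. In the control cells IRF3 was highest at 21.5 ± 5.62 FPKM (SD, n = 2), followed by IRF2 at 3.06 ± 0.409 and IRF1 at 1.34 ± 0.0502, and none of these 3 overlapped the next in order. IRF8, IRF9, IRF5, IRF7 and IRF4 followed below 0.111 FPKM in every control library, and each range overlapped that of the next. In the overexpressing cells IRF1 came first at 118 ± 18.7 FPKM (SD, n = 2), then IRF3 at 17.8 ± 0.922, IRF2 at 4.75 ± 0.205 and IRF5 at 0.413 ± 0.198, each above the range of the next. IRF9, IRF7, IRF4 and IRF8 were last, with ranges that each reached 0. These places use the whole exon length, and those of IRF7 and IRF9 do not hold per unshared base. On that scale IRF7 (0.868 and 0 FPKM) and IRF9 (0.250 and 0.699 FPKM) reached above IRF5 and IRF8 in the controls, and in the overexpressing cells both had ranges that overlapped that of IRF5 and means above it (0.552 and 0.860 FPKM).

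**Figure D3:**
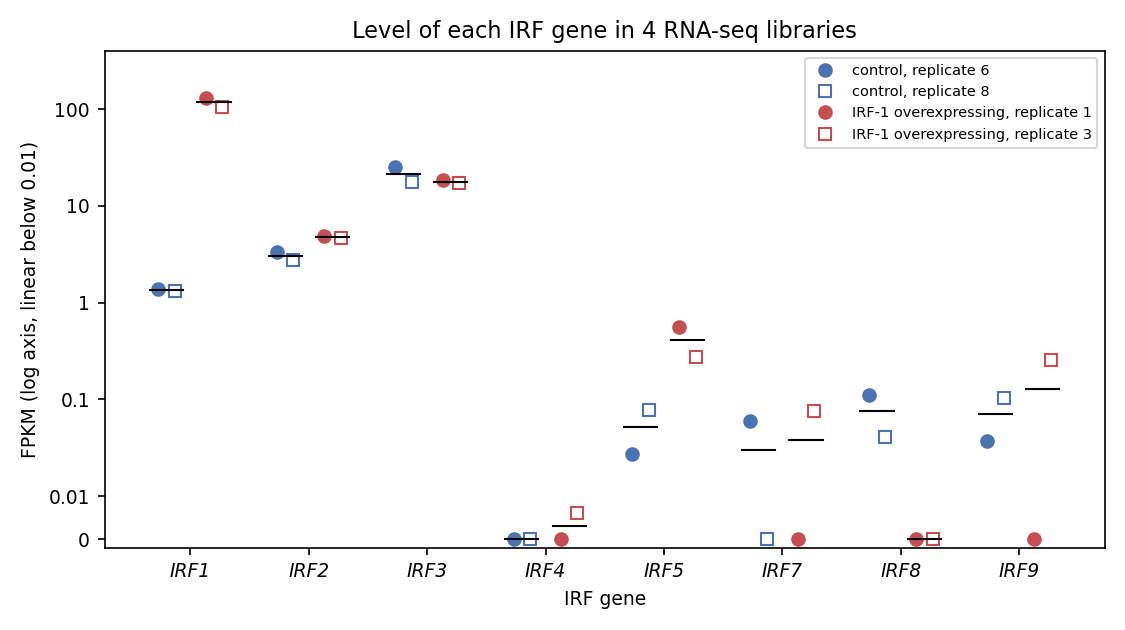
Level of each IRF gene (x axis) as FPKM (y axis, a log axis that is linear below 0.01) in 2 control and 2 IRF-1 overexpressing libraries, with a point for each library and a bar for each group mean. IRF1 moves from below IRF2 and IRF3 in the controls (1.30 and 1.37 FPKM) to above both in the overexpressing cells (105 and 131 FPKM).

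The balance within the family was read from the summed FPKM of the 8 genes. IRF1 made up 84.6% and 82.4% of the sum under IRF-1 overexpression and 4.52% and 5.98% in the controls. The ratio of IRF1 to IRF2, the activator to the repressor, was 26.8 and 22.7 under IRF-1 overexpression and 0.411 and 0.471 in the controls. The IRF1 level was divided by the exon length of the whole gene, which the insert does not fill. These shares and ratios are thus not on the same scale in the 2 groups. Without IRF1 the summed FPKM was 23.9 and 22.3 in replicates 1 and 3 and 29.1 and 20.5 in the controls, so these values overlapped. An exact permutation test of 2 libraries against 2 cannot give a two-sided p below 0.333, and no test is given for these shares and ratios.

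The proteins that activate IRFs were counted from a list of 22 genes, which holds nucleic acid sensors, adaptors and kinases. Of these, 21 had a named identifier and 14 were tested. By edgeR 2 were called higher and 0 lower, against 8.61% and 10.6% of all genes tested. The median log2 fold change was 0.01, against -0.0016 for all genes tested. TLR3, the endosomal receptor for double-stranded RNA, had 385 and 188 counts under IRF-1 overexpression and 12 and 6 in the controls (log2 fold change 4.47, SE 0.49, adjusted p = 0.000882, edgeR). IFIH1, the cytoplasmic sensor MDA5, had 303 and 166 counts against 13 and 10 (3.84, SE 0.42, adjusted p = 0.000855, edgeR). Both sensors rose from a low level. TLR3 passed the filter only through the overexpressing libraries. The number of activators called higher is therefore not weighed against that of all genes. At an unadjusted p under 0.05, 4 genes of the list were lower, and DESeq2 and limma-voom called 0 of them. No share of all genes is given at that limit, so the 4 are not weighed against it. With the adjusted p alone, 2054 of all 13250 genes tested were lower. Of the 4, TRAF6 (log2 fold change -0.75), IKBKE (-0.91) and MAVS (-0.58) passed the adjusted p and not the fold limit. These were named after their values were seen. With 1 library left out, the adjusted p of each of the 3 was above 0.05 in 3 of 4 fits (edgeR). IKBKE ran from -1.19 without control replicate 8, where it was called lower, to -0.56 without control replicate 6. The fourth, MYD88, the adaptor of Toll-like receptors, passed the fold limit and not the adjusted p, with 30 and 36 counts against 48 and 55 (-1.08, SE 0.40, adjusted p = 0.0795, edgeR) and 44.3% of its exon bases shared with other genes. It too was named after its values were seen. TBK1, the kinase of IRF3, also named after its values were seen, had 309 and 291 counts against 204 and 264 (-0.09, SE 0.22).

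Proteins that bind DNA or act as cofactors with IRFs made a list of 12 genes, 11 of them with a named identifier and 10 tested. Of these, 1 was called higher and 1 lower, against 8.61% and 10.6% of all genes tested, with a median log2 fold change of -0.08. BATF3, a leucine zipper partner of IRF4 and IRF8, had 673 and 356 counts under IRF-1 overexpression and 109 and 84 in the controls (log2 fold change 1.91, SE 0.31, adjusted p = 0.00371, edgeR). KAT2B, an acetyltransferase that binds IRF1 and IRF2, had 293 and 218 counts against 492 and 378 (-1.25, SE 0.24, adjusted p = 0.00721, edgeR). Without control replicate 6 its log2 fold change was -0.96, inside the fold limit, and with glmTreat its adjusted p was 0.346. STAT2 and JUN were named after their values were seen. STAT2, a partner of IRF9, had a log2 fold change of -0.06 (SE 0.18), with 49.4% of its exon bases shared with other genes. JUN had 3693 counts in control replicate 6 and 174 in control replicate 8, so that its log2 fold change of -0.88 became 2.75 without the one and -1.81 without the other, each past the limits.

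Corepressors of IRF2 and proteins that set IRF stability made a list of 10 genes, of which 9 had a named identifier and 8 were tested. TRIM21, a ubiquitin ligase that acts on several IRFs, had 436 and 335 counts under IRF-1 overexpression and 80 and 60 in the controls (log2 fold change 1.98, SE 0.28, adjusted p = 0.00217, edgeR), and was the 1 gene called higher. IRF2BPL, a relative of the IRF2 corepressors, had 828 and 806 counts against 1562 and 1138 (-1.20, SE 0.22, adjusted p = 0.00606, edgeR) and was the 1 called lower. The call of IRF2BPL was lost without control replicate 6 (log2 fold change -0.85), without overexpressing replicate 1 (adjusted p = 0.0579, edgeR) and with glmTreat, which tests against the fold limit itself (adjusted p = 0.419). Under the other alternatives its adjusted p was as low as 6.4e-07 (edgeR, DESeq2 and limma-voom). Among all genes tested, 8.61% were called higher and 10.6% lower, and the median of the list was 0.02. STUB1, named after its values were seen, has 100% of its exon bases shared with other genes and had 0 counts in every library.

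Known targets of IRFs were taken from a list of 30 genes, of which 27 had a named identifier and 20 were tested. Of these 20, 14 were called higher and 2 lower. Among all genes tested, 8.61% were called higher and 10.6% lower. The median log2 fold change was 1.42, also with the 2 genes that were at 0 in the controls set to their bounds. These 2 genes, and others low in the controls such as GBP1, passed the filter only through the overexpressing libraries. The count and the median thus rest in part on the filter, and are not weighed against those of all genes. PSMB8, a catalytic subunit of the immunoproteasome, had 4156 and 2756 counts under IRF-1 overexpression and 144 and 99 in the controls (log2 fold change 4.34, SE 0.26, adjusted p = 0.000145, edgeR). PSMB9, another of its subunits, had 1090 and 743 counts against 71 and 33 (3.64, SE 0.37, adjusted p = 0.000686, edgeR), with 24.6% of its exon bases shared with another gene. GBP1, an interferon-induced GTPase, had 332 and 243 counts against 8 and 15 (4.17, SE 0.37, adjusted p = 0.000454, edgeR), and IFIT1, which binds foreign RNA, had 474 and 230 against 21 and 10 (3.99, SE 0.47, adjusted p = 0.0011, edgeR). With 1 library left out, the log2 fold change ran from 3.14 to 4.395 for PSMB9 and from 3.49 to 4.71 for IFIT1. GBP1 and IFIT1 belong to families of similar genes, and reads of near-identical copies may be split between them.

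Other targets were not counted at all. IFNB1, which encodes interferon beta, and CXCL10, VCAM1 and IDO1, all named after their values were seen, had 0 counts in all 4 libraries, so that levels under 0.12 to 0.188 CPM were not detectable. The 2 targets called lower were CIITA, the class II transactivator, with 43 and 36 counts under IRF-1 overexpression and 60 and 66 in the controls (log2 fold change -1.13), and NOS2 with 6 and 4 counts against 17 and 20 (-2.32). They too were named after their values were seen, and NOS2 passed the filter only through the controls. Neither was called by DESeq2, with glmTreat or with any 1 of the 4 libraries left out. Their log2 fold changes moved little with 1 library left out, from -1.14 to -1.12 for CIITA and from -2.49 to -2.18 for NOS2.

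Genes whose pattern over the 4 libraries was most like that of the called members were sought among 11264 named genes, by the distance of centred log2 CPM. For IRF1 these were LRFN5 (distance 0.513), GAD2 (0.586) and LCP1 (0.604). LRFN5, a synaptic adhesion protein, had 239 and 209 counts under IRF-1 overexpression and 1 and 0 in the controls, a ratio of 323 per library total (95% exact interval 57.7 to 12792). Both control counts of LRFN5 lay under the floor of 3 counts, which this interval does not take into account. GAD2, a glutamate decarboxylase, had 181 and 98 counts against 0 and 0, which is at least 32.9-fold higher with 3 counts in each control library. LCP1, the actin-bundling protein L-plastin, had 5809 and 3105 counts against 30 and 21. For IRF5 they were ONECUT2 (0.172), XK (0.191) and NEGR1 (0.219), which like IRF5 were higher in overexpressing replicate 1 than in replicate 3 and higher in control replicate 8 than in replicate 6. The genes were picked by this distance, so the shared order follows from the choice. LRFN5, GAD2 and XK passed the filter only through the overexpressing libraries. ONECUT2, a homeodomain factor, had 1450 and 589 counts under IRF-1 overexpression and 67 and 170 in the controls. XK was not called with glmTreat or without overexpressing replicate 1 (log2 fold change 2.17, against 2.79).

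Genes beside the members were examined for changes shared by position. The 19 genes that flank, span or share exons with a member included 12 that were tested. Of these, edgeR, DESeq2 and limma-voom each called 0, while edgeR called 8.61% of all genes tested higher and 10.6% lower. At an unadjusted p under 0.05, a limit at which no share of all genes is given, 1 of the 12 was higher and 0 lower. This was COX4I1, next to IRF8, with a log2 fold change of 0.66 (SE 0.14, adjusted p = 0.0111, edgeR), short of the fold limit. TNPO3, 5144 bases from IRF5, had 4453 and 3448 counts under IRF-1 overexpression and 2026 and 2622 in the controls (0.30, SE 0.14), and KCP on its other side had at most 10 counts in any library. RAD50, which spans IRF1 on the other strand with no shared exon bases, had a log2 fold change of 0.24 (SE 0.17), and the flanking SLC22A4 and IL5 had no more than 3 counts in any library. SCAF1 next to IRF3 (-0.13), DUSP22 and EXOC2 beside IRF4 (0.40 and -0.10), RASSF7 next to IRF7 (-0.28), FOXF1 next to IRF8 (-0.67) and RNF31 next to IRF9 (-0.11) were not called either. ENPP6 next to IRF2 and CDHR5 next to IRF7 did not pass the filter, and 3 flanking genes have no symbol.

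Some marker genes of other cell types moved with the groups, and fewer cells of a type cannot be told apart from less RNA per cell in these bulk libraries. Among all genes tested, 8.61% were called higher and 10.6% lower. Of 9 immune markers, 5 were tested and 1, LCP1, was called higher. The summed immune markers were 244 and 161 CPM in the overexpressing libraries and 16.0 and 11.0 CPM in the controls. LCP1 alone made 234 and 149 CPM of the former, and without it the sums were 10.3 and 11.9 CPM against 14.1 and 9.83 CPM, led in the controls by CD68. CD68, SPI1, CSF1R and CD79A were counted in all 4 libraries and were not called. CSF1R and CD79A have 42.2% and 62.3% of their exon bases shared with other genes. PTPRC, which marks all leukocytes, had 1 count in control replicate 8 and 0 in the other libraries, and CD3E had 0 in all.

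Of 7 trophoblast markers, 4 were tested and 3 were called lower (KRT8, KRT18 and TFAP2C), and their sum, led by KRT8, was 277 and 1114 CPM against 15593 and 9549 CPM, with CDX2 and HAND1 at 0. Of 9 fibroblast markers, 8 had a named identifier, 4 were tested, 3 were called lower (PDGFRB, DCN and COL1A1) and 1 higher (COL1A2), and the sum was 144 and 88.0 CPM against 204 and 105 CPM, led by COL1A2 under IRF-1 overexpression and by PDGFRB in the controls. COL1A2 was not called without overexpressing replicate 1 or without control replicate 8 (log2 fold changes 0.64 and 0.78, against 1.08), nor with glmTreat (adjusted p = 0.862). Of 10 pluripotency markers, 5 had a named identifier, 4 were tested, 3 were called lower (LIN28A, CDH1 and ESRRB), and the sum, led by LIN28A, was 199 and 272 CPM against 786 and 645 CPM. LIN28A was not called with glmTreat (adjusted p = 0.0951). POU5F1 and SOX2 had no named identifier and were not analysed here, and NANOG had 5 to 11 counts in each library, so the labelled cell type was checked on LIN28A, CDH1, ESRRB and EPCAM alone. The part of these markers in the values of the IRF genes was not tested.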

How the data were processed

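The authors deposited counts of reads per Ensembl gene, made per their methods with trim_galore, HISAT2 on Sus scrofa 11.1 and featureCounts 1.6.4. The methods also name htseq-count. The annotation release, strand setting and treatment of reads at several places are not given in the sources used here. The exon length in bases, an annotation value deposited beside the counts, gave FPKM here, with library totals, whereas CPM values used TMM-scaled totals and floors the totals as they are. Of 24358 identifiers, 14692 had a symbol, and 0 columns of counts were left unused. The ChIP-seq libraries were not analysed here. edgeR 4.0.16 in R 4.3.3 was run on all genes (TMM, filterByExpr, quasi-likelihood test, Benjamini-Hochberg over 13250 genes). SE was the log2 fold change over the root of F. Alternatives were other scalings and filters, DESeq2 1.42.0, limma-voom (limma 3.58.1), glmTreat, no fold limit, no mitochondrial genes, and each library left out.

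The members and lists were chosen with earlier results of these data known. Lists were written from general knowledge, and results for some single genes are left out here. Named in each list were up to 4 called genes with the largest log2 fold change in size and a mean of at least 5 CPM, or the most abundant to make 2. For each called member the 3 most alike genes (log2 CPM, prior count 2) were named, with the genes beside or overlapping a member. Marker lists are described by counts and by the genes called. Other genes named from the lists were picked after their values were seen. Counting noise alone did not account for the differences within a group (chi-square over its degrees of freedom, 15.1 in the overexpressing cells and 25.8 in the controls), so no replicate was taken for a library deposited again. This does not show that they were separate cultures.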

Additional observations from a re-analysis of the deposited data

How the results depend on the processing

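IRF1 was called under each alternative, with a log2 fold change of 6.30 to 6.62, and IRF2 was called under none (0.49 to 0.82). IRF3 was called under none and ran from -0.54 to 0.057 with 1 library left out, the positive value coming without control replicate 6. IRF5 lost its call with glmTreat and without overexpressing replicate 1. With 1 library left out, the lone library is assumed to vary like the other group, and such fits called 1 to 2 members higher, 733 to 1124 genes higher and 787 to 1500 lower. They called 0 to 1 activators lower, 1 to 2 partners higher and 0 to 2 lower, 0 to 1 corepressors and turnover genes lower, and 0 targets lower. The lowest counts of all genes came without overexpressing replicate 1. With glmTreat, which tests against the fold limit itself, 611 genes were higher and 603 lower, with 1 member higher, 0 partners lower, 0 corepressors and turnover genes lower, and 10 targets higher and 0 lower. With adjusted p alone, 1842 genes were higher and 2054 lower, and 3 activators and 2 corepressors and turnover genes were lower. DESeq2 called 0 targets lower, and without mitochondrial genes 1 was. Without division by length, the share of IRF1 was 6.98% in the controls and 86.5% in the overexpressing cells. Over unshared exon bases, an alternative chosen after seeing the data, it was 5.09% and 82.7%. Without a filter, IRF8 had an unadjusted p of 0.0389 and an adjusted p of 0.12 (edgeR), lower in the overexpressing cells. Depth limits IRF4, IRF7, IRF8 and IRF9, and shared exons limit IRF7 and IRF9.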
